A study of Mus musculus with 15 samples.

Results

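The genes described here were 10 members of the Notch pathway in mouse endometrial epithelial organoids. They are the receptors *Notch1*, *Notch2* and *Notch3*, the receptor-modifying enzyme *Lfng*, the ligands *Jag1*, *Jag2*, *Dll1* and *Dll4*, and the target genes *Hes1* and *Hey1*. The list was drawn up by gene name, and all 10 were found by their mouse Ensembl identifiers among the 16729 genes of the matrix. *Hey1* was higher in *Smad2/3* cKO than in control organoids, *Dll4* had lower and *Jag1* higher mean values there, *Notch2* had lower values in control organoids grown with A83-01, and *Hes1* kept nearly the same level in every group.

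Notch receptors are single-pass membrane proteins that are activated by Jagged or Delta-like ligands on a neighbouring cell. Ligand binding leads to cleavage of the receptor by ADAM proteases and gamma-secretase, and the released intracellular domain enters the nucleus, binds the DNA-binding protein RBPJ with a Mastermind coactivator, and switches on HES and HEY genes, which encode transcriptional repressors. Fringe enzymes such as LFNG add a sugar to the receptor and alter which ligands it answers to. In many epithelia, the uterine epithelium among them, the pathway takes part in choices between cell fates.

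Organoids are epithelial cells grown in Matrigel into hollow or lobed bodies, here from the uterine epithelium of adult female mice. All mice were homozygous for floxed alleles of both *Smad2* and *Smad3* (Smad2flox/flox; Smad3flox/flox). The *Smad2/3* cKO mice carried in addition a Cre recombinase driven by the lactoferrin gene (Ltfcre/+), which is active in uterine epithelium and was induced with estradiol at weaning according to the methods of the study. A83-01, used at 500 nM, inhibits the activin, nodal and TGF-β type I receptor kinases (ALK4, ALK7 and ALK5) upstream of SMAD2 and SMAD3. The groups were control + vehicle (DMSO, n = 3), control + A83-01 (n = 4), *Smad2/3* cKO with DMSO (n = 4) and *Smad2/3* cKO + A83-01 (n = 4), 15 samples in all. The culture medium of all groups held EGF, FGF10, HGF, WNT3a, R-spondin and Noggin, so no group was free of added growth factors or of the BMP antagonist. The labels state 4 mice for each genotype, and each sample's label ends in a number, which takes 4 values among the 7 control samples but 7 values among the 8 *Smad2/3* cKO samples. Control + A83-01 replicates 1, 2 and 3 carry the numbers of control + vehicle replicates 1, 2 and 3, and *Smad2/3* cKO + A83-01 replicate 1 carries that of *Smad2/3* cKO replicate 2. Replicate 1 of *Smad2/3* cKO carries the same number as replicate 1 of both control groups, so the number alone does not identify a mouse, and which samples share a mouse is not known.

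The 250 bases before the start site are printed for 3 of the members, since SMAD2/3 and the Notch transcription complex both act at DNA. They come from RefSeq (GRCm38.p6), in which 8 of the 10 members had an entry, and are given 5′ to 3′ on the strand of the gene. The target genes *Hes1* and *Hey1* had no entry, so neither was searched for these motifs. Capitals mark CAGAC or its reverse complement GTCTG, the short SMAD binding element, and GTGGGAA, the site of RBPJ. *Dll4* (chr2:119325534-119325783, plus strand) is shown because it had lower values in *Smad2/3* cKO, short of the thresholds. A second reason is that its window held CAGAC at 3 places, 224, 38 and 34 bases before the start. A link between these places and the values of *Dll4* was not tested. *Lfng* (chr5:140607091-140607340, plus strand) is shown because, of the 8 members with an entry, it alone held GTGGGAA, 109 bases before the start. *Notch2* (chr3:98013288-98013537, plus strand), the one member whose groups did not overlap for A83-01 in control organoids, is shown because its window held neither.
Dll4: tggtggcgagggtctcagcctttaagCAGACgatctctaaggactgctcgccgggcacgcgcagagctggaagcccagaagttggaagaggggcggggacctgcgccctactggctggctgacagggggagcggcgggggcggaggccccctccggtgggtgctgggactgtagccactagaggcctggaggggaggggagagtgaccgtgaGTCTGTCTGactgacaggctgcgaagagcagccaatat
Lfng: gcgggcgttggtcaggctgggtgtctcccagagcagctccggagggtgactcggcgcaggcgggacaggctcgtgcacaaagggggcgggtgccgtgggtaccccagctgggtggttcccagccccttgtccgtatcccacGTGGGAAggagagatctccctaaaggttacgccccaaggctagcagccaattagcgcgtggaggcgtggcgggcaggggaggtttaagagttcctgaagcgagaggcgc
Notch2: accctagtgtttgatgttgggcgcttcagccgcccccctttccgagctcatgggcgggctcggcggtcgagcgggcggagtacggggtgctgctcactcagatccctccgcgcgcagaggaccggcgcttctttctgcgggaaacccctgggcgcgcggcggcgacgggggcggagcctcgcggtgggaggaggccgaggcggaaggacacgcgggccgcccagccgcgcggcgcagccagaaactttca
Both motifs were searched on both strands, and the 2 copies of GTCTG nearest the *Dll4* start overlap by 1 base. CAGAC was found in 5 of 9 windows of the members (*Dll4*, *Jag1*, *Notch3* and both windows of *Dll1*) and in 42.2% of all 32851 promoters of this length. How many of these promoters held it at 3 places was not counted. GTGGGAA was found in 5.42% of them. The palindrome GTCTAGAC was in no member window and in 0.167% of all promoters.

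Values are normalized counts, meaning Salmon read estimates for each gene scaled for the depth of the sample. Samples summed to 20.2 to 24.4 M of them, and a value up to 3 was taken to be at the measurable minimum. *Smad2* was at 1171 ± 149 (SD, n = 3), 982 ± 61.6 (SD, n = 4), 875 ± 43.8 (SD, n = 4) and 921 ± 195 (SD, n = 4) in the groups as listed above, and *Smad3* at 1624 ± 107, 1373 ± 559, 1576 ± 333 and 1448 ± 435. These are sums over each whole gene, so the removal of the floxed exons was not checked by them. All 7 epithelial markers looked at were measured in every group, and their summed level, most of it keratins, ran from 246082 to 314877 in control + vehicle. It ran from 159357 to 274145 with A83-01, from 128444 to 236028 in *Smad2/3* cKO and from 128728 to 194984 in *Smad2/3* cKO + A83-01. *Epcam* and *Pax8* did not follow the sum. *Epcam* was at 21586 to 25386 in control + vehicle and 19889 to 28844 in the other samples. *Pax8* was at 4560 to 5448 in control + vehicle and 5905 to 10023 in the other samples. The mean of *Cdh1* was, like the sum, highest in control + vehicle (15679), with overlapping samples. It was 11356 in control + A83-01, 11817 in *Smad2/3* cKO and 11541 in *Smad2/3* cKO + A83-01. Markers of smooth muscle and pericytes (4 of 6 analysed) summed to 59.5 to 185 in control + vehicle, most of it *Acta2*. They summed to at most 51.3 in any sample of the other groups. Stromal markers (7 of 8 analysed) summed to 33.2 to 320 in control + vehicle and to 2.96 to 27.4 in *Smad2/3* cKO. Their sum was 12.9 to 55.3 in control + A83-01 and 4.69 to 130.2 in *Smad2/3* cKO + A83-01. Leukocyte markers (5 of 6 analysed) summed to 1315 to 2938 in control + vehicle and to between 2117 and 8762 in the other groups. Most of the latter sum was *Cd68*, and *Lyz2* went the other way in control + A83-01 (5.24 to 15.1, against 41.2 to 70.8 in control + vehicle). *Ptprc* was at 12.5 to 38.5 in control + vehicle and at 68.5 to 514 in the samples of the other groups. Over control + vehicle its log2 fold change was 3.33 in *Smad2/3* cKO (adjusted p = 0.00228) and 2.82 in control + A83-01 (adjusted p = 0.0190). *Csf1r* overlapped between all groups. *Smad2/3* cKO replicate 2 stood apart in 2 macrophage markers, with *Lyz2* at 3372 and *Adgre1* at 351, where the other 14 samples reached at most 86.9 and 9.01. Without it the log2 fold change of *Smad2/3* cKO over control + vehicle was 1.498 for *Hey1* (adjusted p = 0.0194), −1.06 for *Dll4* (0.0399), 0.81 for *Jag1* (0.0898) and 0.92 for *Notch1* (0.205). In RNA from whole organoids, fewer cells of a type and less RNA per cell cannot be told apart, and the part of these marker differences in the results below was not tested.

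Compared per kb of merged exons, the members covered a wide range of levels. Averaged over the 15 samples, *Hes1* was the highest at 474 normalized counts per kb, followed by *Jag1* at 354, *Dll4* at 137 and *Hey1* at 47.2. The receptors lay below them, *Notch2* at 21.6, *Notch1* at 14.0 and *Notch3* at 6.57, with *Dll1* at 6.61, *Jag2* at 3.66 and *Lfng* at 0.903 per kb. In control + vehicle the mean levels of the ligands *Jag1* (239.9 per kb) and *Dll4* (238 per kb) were nearly equal and their samples overlapped, while *Hes1* lay above both and *Notch2* below both without overlap. *Hey1* and *Notch1*, *Notch1* and *Dll1*, *Dll1* and *Notch3*, and *Notch3* and *Jag2* were neighbours in that group whose samples overlapped. *Hes1* was also the steadiest member, its highest sample 1.79-fold above its lowest, whereas the other 8 members above 0 in all samples spanned 5.13-fold (*Notch1*) to 16.3-fold (*Jag2*).

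**Figure D1:**
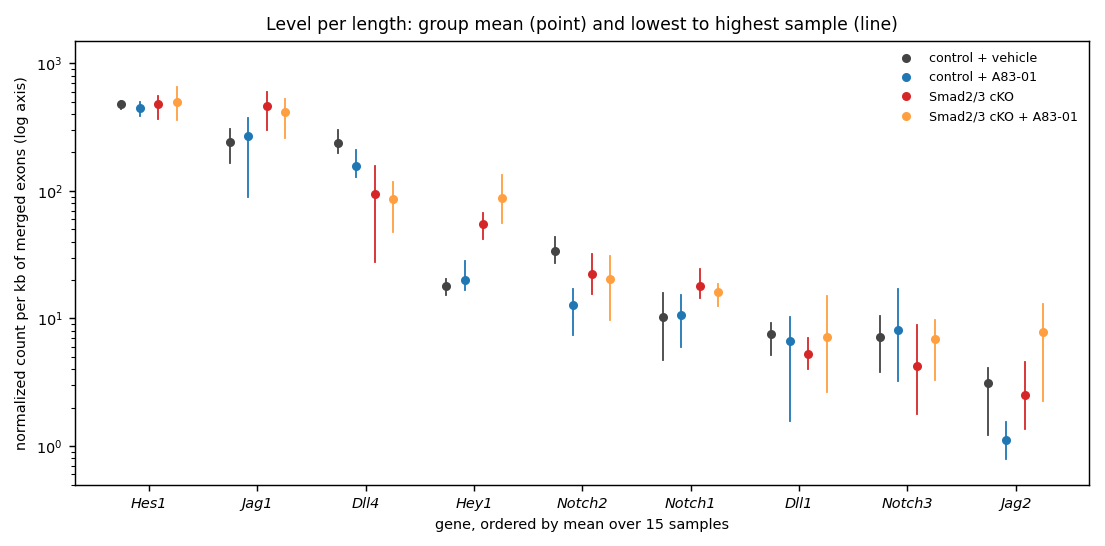
Level per length of 9 members, in normalized counts per kb of merged exons on a log axis. Points are group means and lines run from the lowest to the highest sample. *Hes1* and *Jag1* stand at the top, and for *Hey1* the lines of both *Smad2/3* cKO groups lie above those of both control groups.

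Of the 10 members, 9 reached a mean of 10 and were tested, and *Lfng* did not. A gene passed the thresholds at an adjusted p below 0.01 together with a change of over 1.4-fold in either direction. With A83-01 in control organoids none of the 9 passed, where 2.27% of the 13009 genes tested did, and *Notch2* alone had groups that did not overlap, as had 21.7% of all genes. Between *Smad2/3* cKO and control + vehicle, *Hey1* alone passed (1 of 9, against 7.38% of 13149 genes, 4.08% higher and 3.3% lower), and the groups did not overlap for *Hey1* and *Dll4* (2 of 9, against 30.8%). Adding A83-01 to *Smad2/3* cKO organoids moved no gene of the 12998 tested past the thresholds (0.0%, limma; 554 genes, 4.26%, had an unadjusted p below 0.05), and the groups overlapped for every member, where 2.9% of all genes had groups that did not. Between genotypes under A83-01 no member passed, and 3 of 12915 genes (0.0232%) did so. There the groups of *Jag2*, *Dll4* and *Hey1* did not overlap, 3 of 9 against 6.12% of all genes. The effect of A83-01 did not differ past the thresholds between genotypes for any member, as it did for 72 of 13066 genes (0.551%). The median log2 fold change of the 9 members was −0.11, −0.26, 0.04 and 0.61 in these 4 comparisons, and that of all genes lay between −0.02 and 0.01. At an adjusted p below 0.05 with the same fold, *Notch2* would pass for A83-01 in control organoids (1 of 9, against 7.34% of all genes) and *Hey1* and *Jag1* for *Smad2/3* cKO (2 of 9, against 18.3%). Each group of samples, control + vehicle among them, enters more than 1 of these 4 comparisons, which are therefore not independent.

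**Figure D2:**
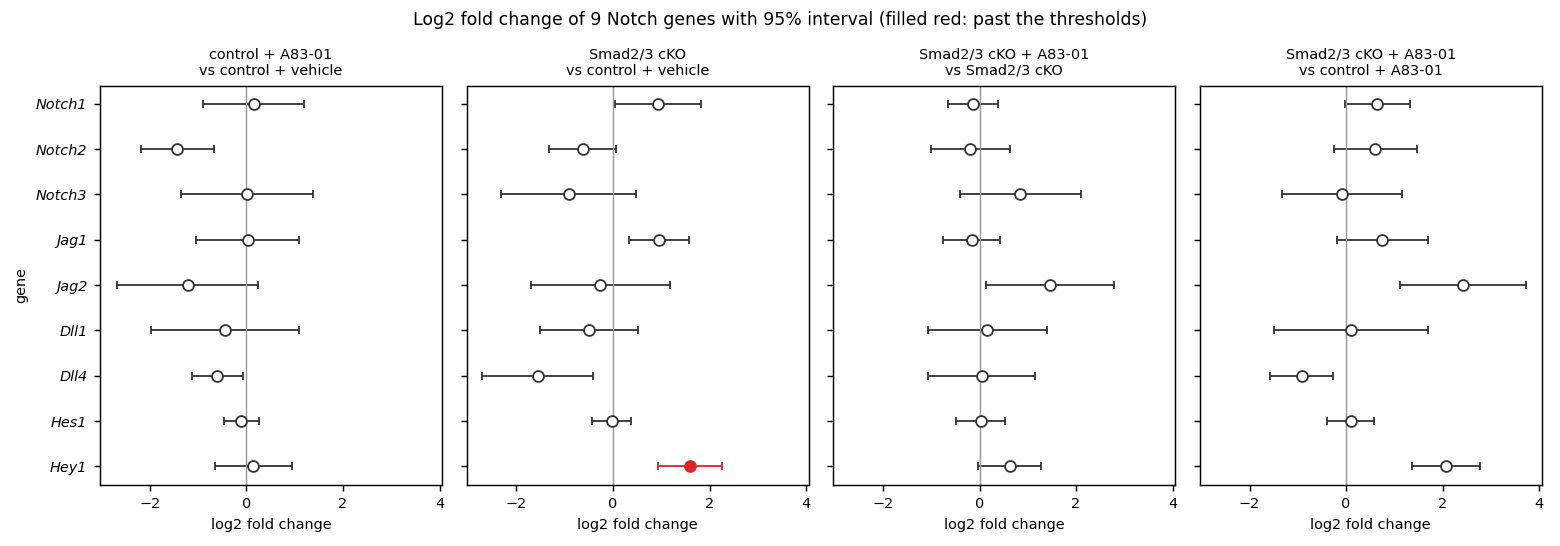
Log2 fold change with its 95% interval for 9 members in the 4 comparisons of groups, the first-named group over the second. The filled red point, *Hey1* in *Smad2/3* cKO over control + vehicle (1.59), is the only one past the thresholds.

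Among the receptors on the member list, *Notch2* stood apart from *Notch1* and *Notch3* for A83-01 in control organoids. *Notch4*, a receptor outside the list, fell further there and is described below. *Notch2* (ENSMUSG00000027878, GRCm38 chromosome 3, 98013527 to 98150361) had normalized counts of 294, 330.2 and 471 in the 3 control + vehicle samples and 184, 139, 149 and 79.9 in the 4 control + A83-01 samples. The groups did not overlap, and in each of the 3 pairs with the same label number the A83-01 sample was the lower one. This is a log2 fold change of −1.43 (standard error 0.33, 95% interval −2.19 to −0.67, adjusted p = 0.0363), short of the threshold. In *Smad2/3* cKO the samples were at 167, 344, 174 and 283, and with A83-01 at 215, 105, 332 and 218, ranges that overlap each other and both control groups. *Smad2/3* cKO over control + vehicle gave −0.63 (interval −1.33 to 0.07, adjusted p = 0.190). The genotypes differed in their A83-01 effect by 1.24 on the log2 scale (interval 0.11 to 2.36, adjusted p = 0.293).

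*Notch1* (ENSMUSG00000026923, chromosome 2, 26457903 to 26516663), the best-known receptor of the family in progenitor cells, had normalized counts of 67.7, 144 and 224 in control + vehicle and 84.7, 163, 216 and 145 in control + A83-01. In *Smad2/3* cKO it was at 207, 259, 347 and 208, and with A83-01 at 177, 217, 266 and 258. The control groups covered the same range, and both *Smad2/3* cKO groups lay in its upper part or above it. The log2 fold change was 0.15 for A83-01 in control organoids (interval −0.90 to 1.20, adjusted p = 0.893), 0.93 for *Smad2/3* cKO over control + vehicle (interval 0.04 to 1.83, adjusted p = 0.134) and 0.65 between genotypes under A83-01 (interval −0.03 to 1.33, adjusted p = 0.553). Without control + vehicle replicate 1, its lowest sample, the second of these was 0.47, and without control + A83-01 replicate 1 the third was 0.40.

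*Notch3* (ENSMUSG00000038146, chromosome 17, 32120820 to 32166852), a receptor with a well-known role in vascular mural cells, was low and scattered. Its normalized counts were 84.7, 30.8 and 59.4 in control + vehicle, 26.1, 137, 57.9 and 40.4 in control + A83-01, 18.1, 14.5, 31.7 and 71.8 in *Smad2/3* cKO and 26.9, 40.6, 77.7 and 79.4 in *Smad2/3* cKO + A83-01. All 4 groups overlapped, and no log2 fold change lay further from 0 than −0.92 (*Smad2/3* cKO over control + vehicle, interval −2.31 to 0.47, adjusted p = 0.330, and −0.60 without control + vehicle replicate 1). Summed over the 3 receptors, normalized counts ran from 446 to 754 in control + vehicle, and from 265 to 438 when A83-01 was added. They ran from 392 to 617 in *Smad2/3* cKO, and there from 363 to 676 when A83-01 was added. The make-up of the sum differed: per kb, *Notch2* exceeded *Notch1* by 2.78- to 5.73-fold in the control + vehicle samples, and the ratio was 0.728 to 2.87, 0.660 to 1.80 and 0.641 to 1.65 in the other groups. This ratio was not tested.

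*Lfng* (ENSMUSG00000029570, chromosome 5, 140607320 to 140615545), the Fringe enzyme, was close to the lowest measurable level. Control + vehicle samples were at 4.92, 15.8 and 1.99. Of the other 12 samples 9 were listed at 0, and the remaining ones were at 1.08 (control + A83-01 replicate 3), 8.96 (*Smad2/3* cKO replicate 2) and 1.155 (*Smad2/3* cKO + A83-01 replicate 4). No fold change was fitted for it.

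The 2 abundant ligands differed between genotypes in opposite directions, and neither passed the thresholds. *Dll4* (ENSMUSG00000027314, chromosome 2, 119325784 to 119335962), the Delta-like ligand best known from sprouting vessels, had normalized counts of 766, 1161 and 819 in control + vehicle, 502, 494, 799 and 625.1 in control + A83-01, 445, 107, 599 and 298 in *Smad2/3* cKO and 185, 452, 395.01 and 291 in *Smad2/3* cKO + A83-01. Every *Smad2/3* cKO sample lay below every control + vehicle sample, and under A83-01 the genotypes did not overlap either. On the log2 scale *Smad2/3* cKO over control + vehicle gave −1.56 (standard error 0.51, interval −2.71 to −0.42, adjusted p = 0.0613), and without *Smad2/3* cKO replicate 2, the sample with the high macrophage markers and the lowest *Dll4*, it was −1.06. Between genotypes under A83-01 it was −0.92 (standard error 0.29, adjusted p = 0.340). A83-01 in control organoids gave −0.60 (interval −1.14 to −0.06, adjusted p = 0.174), with the A83-01 sample lower in 3 of 3 pairs of the same label number, and A83-01 in *Smad2/3* cKO organoids gave 0.04 (interval −1.06 to 1.15).

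*Jag1* (ENSMUSG00000027276, chromosome 2, 137081456 to 137116644), the main Jagged ligand of many epithelia, had normalized counts of 969, 1435 and 1789 in control + vehicle and 517, 2007, 2166 and 1626 in control + A83-01. In *Smad2/3* cKO it was at 2397, 3453, 1737 and 3243, and with A83-01 at 3056, 1523, 2366 and 2678. *Smad2/3* cKO replicate 3 fell just within the control + vehicle range, and the other 3 samples were above it. The log2 fold change was 0.95 for *Smad2/3* cKO over control + vehicle (standard error 0.28, interval 0.32 to 1.57, adjusted p = 0.0429), 0.75 between genotypes under A83-01 (interval −0.20 to 1.70, adjusted p = 0.644) and 0.03 for A83-01 in control organoids (interval −1.04 to 1.10). Control + A83-01 replicate 1, the lowest of the 15 samples, was also the one with the fewest genes above 0 (14707, against 14853 to 15649 in the others). Without it the log2 fold change between genotypes under A83-01 was 0.28.

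Set against each other per kb, the 2 ligands were near parity in control + vehicle, where the ratio of *Jag1* to *Dll4* was 0.837, 0.817 and 1.44. It was 0.680, 2.69, 1.79 and 1.72 in control + A83-01. In *Smad2/3* cKO it was 3.56, 21.4, 1.92 and 7.19, and with A83-01 it was 10.9, 2.23, 3.96 and 6.08. The 21.4 is *Smad2/3* cKO replicate 2, the sample with the high macrophage markers. Every *Smad2/3* cKO sample thus lay above every control + vehicle sample, and the *Smad2/3* cKO groups overlapped with control + A83-01. The ratio was formed after the values were seen and was not tested.

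**Figure D3:**
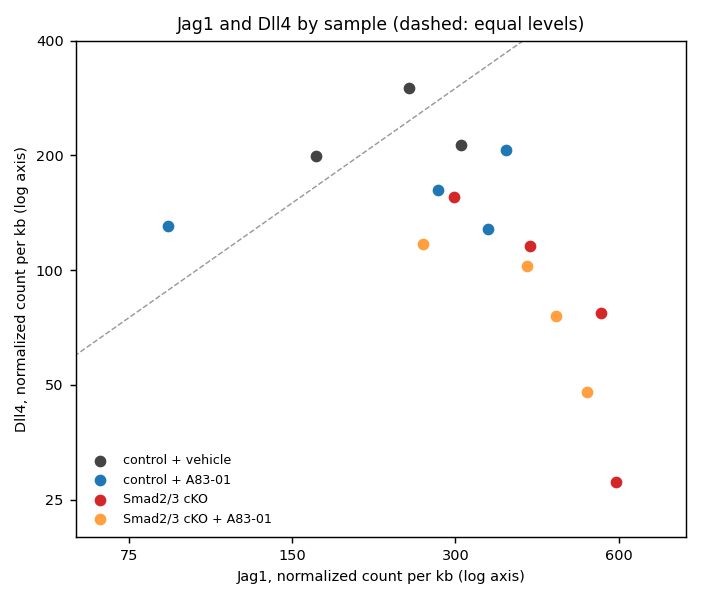
*Dll4* (vertical axis) against *Jag1* (horizontal axis) in the 15 samples, both in normalized counts per kb on log axes, with a dashed line where they are equal. Control + vehicle samples lie near the line, and all *Smad2/3* cKO samples lie below it, at ratios of 1.92 to 21.4.

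*Jag2* (ENSMUSG00000002799, chromosome 12, 112907819 to 112929776), the second Jagged ligand, was far lower. Its normalized counts were 28.4, 27.9 and 8.53 in control + vehicle, 5.54, 6.68, 10.8 and 8.32 in control + A83-01, 14.0, 9.49, 14.4 and 31.7 in *Smad2/3* cKO and 66.8, 15.6, 90.6 and 43.6 in *Smad2/3* cKO + A83-01. The last group held the 3 highest samples of the series and did not overlap with control + A83-01. The log2 fold change between genotypes under A83-01 was 2.42 (standard error 0.59, interval 1.12 to 3.73, adjusted p = 0.173). A83-01 gave −1.22 in control (adjusted p = 0.315) and 1.46 in *Smad2/3* cKO organoids (adjusted p = 0.994), and the difference of these effects was 2.68 (standard error 0.85, interval 0.87 to 4.49, adjusted p = 0.141). Stromal markers (7 of 8 analysed) summed to 12.9 to 55.3 in control + A83-01 and to 4.69 to 130.2 in *Smad2/3* cKO + A83-01, and their part in these values was not tested.

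*Dll1* (ENSMUSG00000014773, chromosome 17, 15367354 to 15376872), the other Delta-like ligand, was at 35.2, 39.0 and 22.03 in control + vehicle, 41.1, 21.1, 43.3 and 6.60 in control + A83-01, 29.8, 16.9, 21.6 and 20.6 in *Smad2/3* cKO and 30.3, 63.5, 11.2 and 15.9 in *Smad2/3* cKO + A83-01. The groups overlapped throughout, and its log2 fold changes lay between −0.50 and 0.16 in the 4 comparisons, with adjusted p of 0.472 or more.

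Of the targets, *Hey1* separated the genotypes and *Hes1* did not. *Hey1* (ENSMUSG00000040289, chromosome 3, 8663359 to 8667256), a repressor that is also known to answer to BMP signals in some cell types, had normalized counts of 59.4, 66.4 and 49.6 in control + vehicle and 58.9, 91.6, 54.8 and 57.2 in control + A83-01. In *Smad2/3* cKO it was at 152, 215, 218 and 137, and with A83-01 at 434, 230.2, 301 and 184. The 8 *Smad2/3* cKO samples ran from 137 to 434 with a median of 217, and the 7 control samples from 49.6 to 91.6 with a median of 58.9. No other member separated all samples of one genotype from all of the other, and 1.09% of 13066 genes did so, 0.689% in the same direction.

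*Hey1* rose in *Smad2/3* cKO over control + vehicle with a log2 fold change of 1.59 (standard error 0.29, interval 0.93 to 2.25, adjusted p = 0.00670). This call rested on all 7 samples: leaving out any one of them gave 1.48 to 1.71 with an adjusted p of 0.0131 to 0.0257. Between genotypes under A83-01 the log2 fold change was 2.07 (standard error 0.32, interval 1.36 to 2.78), the 8th smallest p of 12915 genes, with an adjusted p of 0.0764. It was 0.00863 when all 4 groups were fitted together. Averaged over both treatments, a comparison added after the data were seen, the genotypes differed by 1.83 (standard error 0.21, interval 1.38 to 2.28, adjusted p = 5.16e-05). In this comparison 8.59% of genes passed the thresholds (4.87% higher). No sample left out ended the call of *Hey1* (adjusted p = 5.85e-05 to 0.000225). The fit took the 7 control samples as independent although they carry 4 label numbers, so its standard error may be too small. A83-01 gave 0.14 in control organoids (interval −0.65 to 0.94) and 0.62 in *Smad2/3* cKO organoids (interval −0.03 to 1.27, adjusted p = 0.994), and the difference of these effects was 0.48 (interval −0.43 to 1.39, adjusted p = 0.694). In the averaged comparison *Dll4* (−1.24, adjusted p = 0.0121) came closest to the thresholds of the other members, followed by *Notch1* (0.79, adjusted p = 0.0455) and *Jag1* (0.85, adjusted p = 0.0532). At an adjusted p below 0.05, 3 of 9 members would pass in it, where 14.8% of all genes would. A83-01 averaged over the genotypes, likewise added after the data were seen, moved no member past the thresholds (2.35% of genes passed), and *Notch2* came closest with −0.81 (standard error 0.26, adjusted p = 0.0813).

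*Hes1* (ENSMUSG00000022528, chromosome 16, 30064384 to 30067796), the most general Notch target and also a target of other pathways, had normalized counts of 889, 1018 and 1025 in control + vehicle, 791, 952, 1015 and 882 in control + A83-01, 1100.2, 1137, 739 and 907 in *Smad2/3* cKO and 1321, 736, 759.5 and 1199 in *Smad2/3* cKO + A83-01. The means lay between 910.03 and 1004, and all groups overlapped. The log2 fold change was −0.11 for A83-01 in control organoids (interval −0.47 to 0.26), −0.03 for *Smad2/3* cKO over control + vehicle (interval −0.43 to 0.37), 0.02 for A83-01 in *Smad2/3* cKO organoids (interval −0.49 to 0.53) and 0.10 between genotypes under A83-01 (interval −0.39 to 0.58). Between genotypes, the intervals of *Hes1* left out the log2 fold change of *Hey1* in the same comparison, 1.59 with vehicle and 2.07 under A83-01. For A83-01 in control organoids the interval of *Hes1* held the value of *Hey1*, 0.14. In *Smad2/3* cKO organoids the value of *Hey1*, 0.62, lay just above it.

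**Figure D4:**
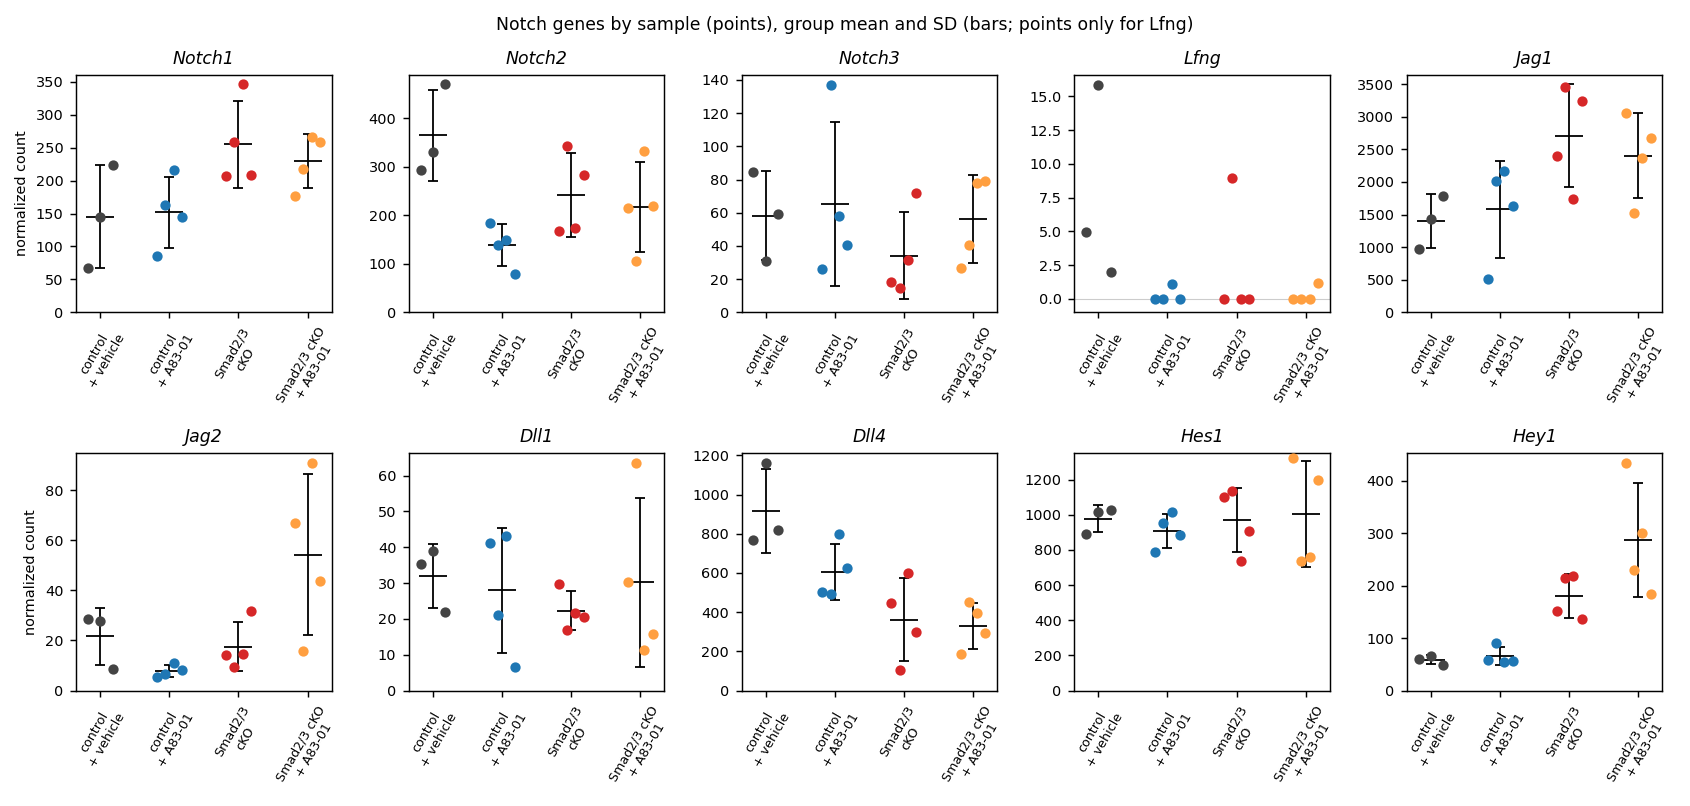
Normalized count of each member in every sample (points) by group, with group mean and SD (bars); *Lfng* is drawn with points only. *Smad2/3* cKO samples of *Hey1* (137 to 434) all lie above the control samples (49.6 to 91.6), whereas *Hes1* shows no separation.

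Other genes of the pathway were looked at in 6 lists by role, with 56 of 61 listed genes in the matrix and 49 tested in the first 2 comparisons. A83-01 in control organoids moved none of them past the thresholds, and their median log2 fold change was −0.215. In *Smad2/3* cKO over control + vehicle 1 rose and 2 fell (3 of 49, against the 7.38% of all genes), with a median of −0.16. In both comparisons with *Smad2/3* cKO + A83-01, 48 were tested and none passed, and none of 49 passed in the test of whether A83-01 acted differently in the genotypes.

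*Notch4* (ENSMUSG00000015468), the fourth receptor and one mainly known from endothelium, fell by 3.71 on the log2 scale in *Smad2/3* cKO (standard error 0.66, adjusted p = 0.00586). Its normalized counts were 75.9, 60.8 and 124 in control + vehicle, 14.7, 2.10, 2.47 and 1.88 in control + A83-01, 6.996, 4.85, 12.96 and 1.58 in *Smad2/3* cKO and 2.73, 4.62, 8.29 and 5.82 in *Smad2/3* cKO + A83-01. The 12 samples of the other groups all lay below the 3 control + vehicle samples, several near the measurable minimum, and A83-01 in control organoids gave −4.16 with an adjusted p of 0.0120. The endothelial markers *Pecam1* and *Cdh5*, the 2 of 6 analysed, summed to 1.80 to 5.17 in control + vehicle and to at most 27.6 in any sample. *Acta2*, a smooth muscle and pericyte marker, moved the way *Notch4* did. It ran from 53.6 to 176 in control + vehicle and from 4.74 to 21.0 in *Smad2/3* cKO. The other markers of that list, *Des*, *Pdgfrb* and *Cspg4*, had group means of at most 6.31 and were too low to be tested. The part of these markers in the *Notch4* result was not tested.

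*Hes6* (ENSMUSG00000067071), a HES family member that counteracts HES1, fell from 1999, 1517 and 1261 in control + vehicle to 846, 798, 911 and 721 in *Smad2/3* cKO (−0.94 on the log2 scale, standard error 0.18, adjusted p = 0.00754). It was at 1413, 807, 831 and 1292 in control + A83-01 (−0.57 over control + vehicle, adjusted p = 0.238) and at 567, 963, 891 and 857 in *Smad2/3* cKO + A83-01. *Neurl1b* (ENSMUSG00000034413), a ubiquitin ligase that acts on Notch ligands, rose from 37.0, 49.5 and 87.4 in control + vehicle to 292, 193, 215 and 303 in *Smad2/3* cKO (2.16 on the log2 scale, standard error 0.35, adjusted p = 0.00399). It was at 67.3, 109, 121 and 195 in control + A83-01 (1.06 over control + vehicle, adjusted p = 0.208) and at 188, 186, 213 and 167 in *Smad2/3* cKO + A83-01. *Smad2/3* cKO and control + vehicle did not overlap for *Notch4*, *Hes6* or *Neurl1b*. In this comparison each of the 3 calls was lost on leaving out at least one sample. The highest adjusted p was then 0.0285 for *Notch4*, 0.0296 for *Hes6* and 0.0196 for *Neurl1b*. With the replicate number as a block none of the 3 passed (adjusted p = 0.0259 for *Notch4*, 0.0413 for *Hes6* and 0.0317 for *Neurl1b*), and *Hes6* also did not pass without the filter (0.0116), without the variance trend (0.0226), with all 4 groups in the fit (0.0118) or with the label number series as a term (0.0104). For the genotypes averaged over both treatments, chosen after seeing the data, 1 of the 49 rose (*Neurl1b*) and 1 fell (*Hes6*). There 8.59% of all genes passed. *Neurl1b* kept that call with any sample left out (adjusted p = 0.000354 to 0.00325), and *Hes6* did not (0.00666 to 0.0341). None of the 16 listed genes for the transcription complex, none of the 10 for receptor cleavage and none of the 5 tested for glycosylation passed.

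**Figure D5:**
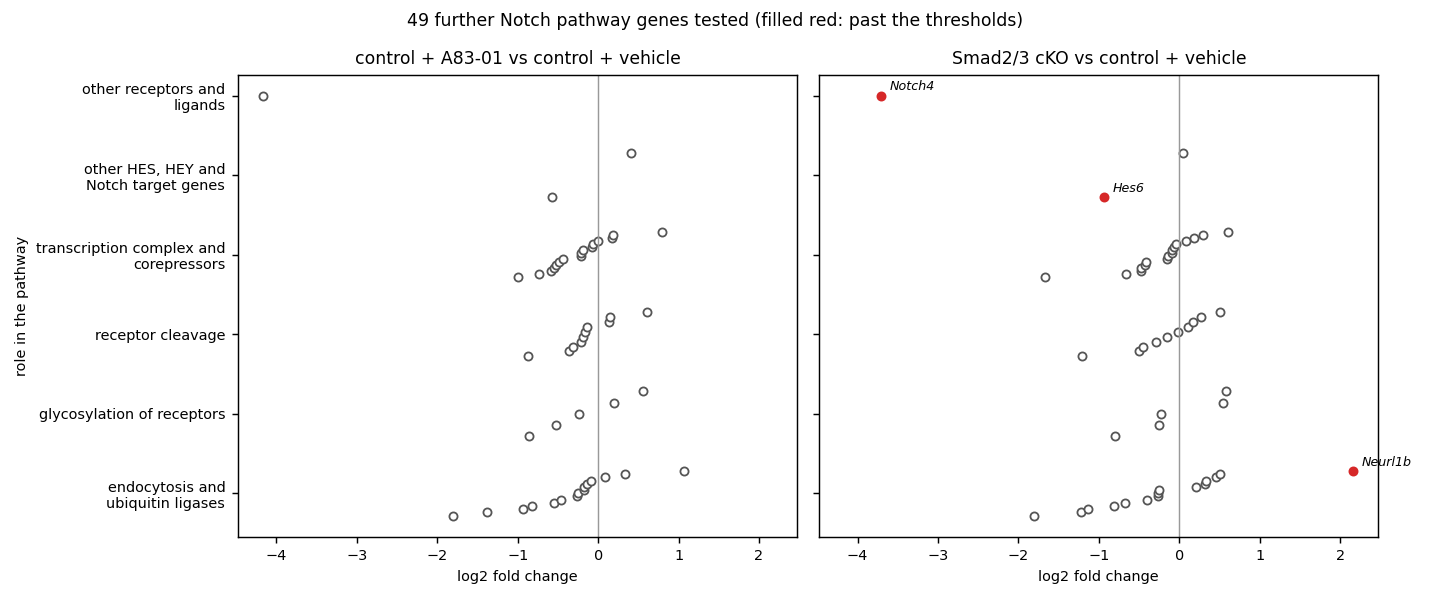
Log2 fold change of 49 further Notch pathway genes (points) in 6 lists by role, for A83-01 in control organoids and for *Smad2/3* cKO, each over control + vehicle. Filled red points are past the thresholds: *Notch4* (−3.71) and *Hes6* (−0.94) fell, *Neurl1b* (2.16) rose.

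Across the 15 samples, which share groups and therefore do not give independent points, *Hey1* and *Dll4* ran opposite to each other (Pearson r = −0.72 on log2 values), as did *Jag1* and *Dll4* (−0.58), whereas *Notch1* and *Jag1* ran together (0.72) and *Hes1* and *Hey1* were nearly unrelated (0.11). Among the 13066 genes with a mean of at least 10, those most like *Hey1* were *Otop1* (r = 0.91), *Hexa* (0.88) and *Tef* (0.88), and those most like *Dll4* were *Epha2* (0.97), *Nrp1* (0.97) and *Hbegf* (0.95). *Zfp990*, *Foxn2* and *Ecpas* were most like *Jag1* (0.94 to 0.95), *Helq*, *Kntc1* and *BC035947* most like *Notch1* (0.89 to 0.92), and *Zfp609*, *Plekhm3* and *Cadm4* most like *Notch2* (0.81 to 0.83). The nearest genes were *Dnah2* for *Notch3* (0.82), *Col3a1* for *Jag2* (0.83), *Bcl6b* for *Dll1* (0.81) and *Rsbn1l* for *Hes1* (0.87).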

How the data were processed

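The authors amplified organoid RNA with a low-input kit that does not keep strand, and estimated reads per gene with Salmon 1.4.0 against GRCm39. The deposited values are a signal that the authors normalized with DESeq2 1.32.0, and their scaling was checked (median ratio to the gene-wise geometric mean 1.0114 in each of the 15 samples, from 12745 genes without a 0). They are not raw counts, so limma 3.58.1 (lmFit, eBayes with trend) in R 4.3.3 was run on log2(normalized count + 1), separately for the samples of each comparison. Genes averaging at least 10 entered, and p was adjusted over all of them by Benjamini-Hochberg. Every adjusted p is from this test, and this scale understates the fold of low genes. The interaction and averaged comparisons used 1 fit of all 15 samples. Scripts were tested on simulated data.

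Members, pathway lists and markers were chosen with earlier results of these data known. The rule for naming took all members, *Smad2*, *Smad3*, pathway genes past the thresholds and the genes with the highest r to a member. An item of the pathway lists is not reported here. Any other gene was named after its values were seen. Positions are from a GRCm38 annotation. Which samples share a mouse is not known, so p-values measure the spread between samples. Control + A83-01 and control + vehicle replicates of the same label number deviated together (r = 0.354 to 0.423 in 3 pairs), and this pairing was used in an alternative fit. Control + A83-01 replicate 4 and control + vehicle replicate 3, of different numbers, did so too (r = 0.347). The remaining alternatives changed the pseudocount (0.1 or 10), the low-value filter (none, or 50), the normalization (quantile), the variance trend, the samples fitted (all 4 groups), the label number series (390 and above or below) and the adjusted p (0.05), or left out 1 sample.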

Additional observations from a re-analysis of the deposited data

Results flagged for a closer look

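Of 28 groups of 4 samples in which a member was above the lowest measurable level, 2 held a sample far from the others, and chance flags about 1 in 20 such groups. *Hey1* in control + A83-01 replicate 2 was at 91.6 normalized counts, against 54.8 to 58.9 in the other 3 samples, and still lay below every *Smad2/3* cKO sample. *Lfng* in *Smad2/3* cKO replicate 2 was at 8.96 normalized counts, with the other 3 samples listed at 0. With those at 0, any value above the lowest measurable level would have been flagged, so the rate of 1 in 20 does not apply to *Lfng*.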

How the results depend on the processing

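Of 1262 values of the members under other settings, 1171 kept their direction and their side of the threshold, 9 no longer passed, 8 passed newly and 74 changed sign. Of the sign changes 64 came from leaving out 1 sample, and none concerned a value past the thresholds. The number of members past the thresholds for A83-01 in control organoids went from 0 to 1 at an adjusted p below 0.05 (*Notch2*). For *Smad2/3* cKO over control + vehicle it went from 1 to 0 without a filter (*Hey1*, adjusted p = 0.0112), to 2 at an adjusted p below 0.05, and to 0 without any one of the 7 samples (lowest 0, highest 0). Between genotypes under A83-01 it went from 0 to 1 with all 4 groups in the fit (*Hey1*). For the genotypes averaged over treatment, chosen after seeing the data, it went from 1 to 3 at an adjusted p below 0.05 and was 1 to 2 with a sample left out, *Dll4* passing without *Smad2/3* cKO replicate 2 (−0.99, adjusted p = 0.00803) or replicate 3 (−1.404, adjusted p = 0.00435). *Dll4* in *Smad2/3* cKO over control + vehicle was −1.89 to −1.06 with a sample left out. *Hey1* was 0.40 to 0.81 for A83-01 in *Smad2/3* cKO organoids and 0.26 to 0.67 for the interaction, both lowest without *Smad2/3* cKO + A83-01 replicate 1. The cause of these shifts was not tested.

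The replicate block was run for every comparison. The pairing held for A83-01 in control organoids, where it changed no member's call (*Notch2* −1.19, adjusted p = 0.0422), took the genes past the thresholds from 295 to 399, and turned *Dll1* to 0.10 and *Jag1* to −0.049. Elsewhere samples of the same replicate number mostly carry different label numbers. They correlated at 0.0153 to 0.0774 between *Smad2/3* cKO and control + vehicle, where only replicate 1 shares a label number and the block gave 0 members (*Hey1* 1.71, adjusted p = 0.0311) and took the genes from 970 to 211. For the averaged genotypes it gave 2 members (*Hey1* and *Notch1*) and turned *Notch2* to 0.004. *Smad2/3* cKO replicate 2 and *Smad2/3* cKO + A83-01 replicate 1, which share a label number but not a replicate number, correlated at 0.355, and a block for them was not run. With the label number series as a term, *Jag1* turned to −0.10 for A83-01 in control organoids, *Dll1* to −0.26 between genotypes under A83-01, *Hes1* to −0.20 for A83-01 in *Smad2/3* cKO organoids and to 0.0099 for *Smad2/3* cKO over control + vehicle, and the interactions of *Jag1* and *Notch1* to 0.057 and 0.11. Quantile normalization turned *Dll1* to −0.032 between genotypes under A83-01.

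With a sample left out, values near 0 changed sign in these ranges of log2 fold change. For A83-01 in control organoids they were −0.75 to 0.10 for *Dll1*, −0.027 to 0.24 for *Hey1*, −0.21 to 0.50 for *Jag1*, −0.32 to 0.54 for *Notch1* and −0.44 to 0.34 for *Notch3*. For *Smad2/3* cKO over control + vehicle they were −0.11 to 0.10 for *Hes1* and −0.80 to 0.016 for *Jag2*. For A83-01 in *Smad2/3* cKO they were −0.29 to 0.51 for *Dll1*, −0.46 to 0.37 for *Dll4*, −0.13 to 0.15 for *Hes1*, −0.36 to 0.039 for *Jag1*, −0.23 to 0.022 for *Notch1* and −0.43 to 0.12 for *Notch2*. Between genotypes under A83-01 they were −0.44 to 0.46 for *Dll1*, −0.05 to 0.23 for *Hes1* and −0.42 to 0.36 for *Notch3*. For the interaction they were −0.022 to 0.26 for *Hes1*, −0.67 to 0.047 for *Jag1* and −0.67 to 0.18 for *Notch1*. For the averaged genotypes they were −0.039 to 0.10 for *Hes1* and −0.13 to 0.14 for *Notch2*, and for A83-01 averaged −0.37 to 0.13 for *Dll1*, −0.12 to 0.023 for *Hes1*, −0.19 to 0.17 for *Jag1*, −0.15 to 0.37 for *Jag2* and −0.23 to 0.20 for *Notch1*.

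The number of all genes past the thresholds moved as well. For A83-01 in control organoids 295 became 146 without a filter, 642 with all 4 groups, 443 with the number series, 955 at an adjusted p below 0.05 and 49 to 312 with a sample left out. For *Smad2/3* cKO 970 became 452 without the trend, 2410 at an adjusted p below 0.05 and 280 to 992 with a sample left out. Between genotypes under A83-01 3 became 72 with the number series and otherwise 0 to 5. The interaction's 72 became 208, the averaged genotypes' 1123 became 1933 and averaged A83-01's 307 became 757 at an adjusted p below 0.05, and with a sample left out 39 to 77, 737 to 1162 and 180 to 408. Sequencing depth before scaling is not given by these values, so counting error at *Lfng*, *Jag2* and *Dll1* could not be set apart from the spread between samples.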
